A study of Mus musculus with 2 samples.

Results

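The osteocalcin genes of the mouse are Bglap, Bglap2 and Bglap3, and these 3 symbols were taken from the 32286 genes listed in each of 2 single-cell RNA libraries of sorted bone marrow cells. The cells came from Adipoq-CreERT2;Ai9 male mice, in which tamoxifen lets a Cre recombinase driven by the adiponectin gene switch on the red reporter tdTomato. Every animal carried both alleles and was given tamoxifen by oral gavage for 3 days at 8 weeks of age. The pulse library was harvested after 24 h and the chase library after 4 weeks. Bright tdTomato+ cells, 0.01% of all cells in the pulse sort and 0.29% in the chase sort, were collected from the digested inner bone surface of femur and tibia. The labels name 4 mice for the whole series and do not say how many went into each library, so each harvest time is 1 library and no test between the times could be made.

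Osteocalcin is a small protein that osteoblasts secrete into bone matrix, where it is among the most abundant proteins other than collagen. Vitamin K-dependent carboxylation of its glutamate residues lets it bind calcium and the mineral of bone, and its incompletely carboxylated form circulates and has been described as a hormone. Bglap and Bglap2 are the bone genes, whereas Bglap3 is known as a related gene expressed in kidney and other tissues.

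The 3 genes lie side by side on the minus strand of mouse chromosome 3 (build mm10, GENCODE vM21). Bglap3 spans chr3:88368616-88372743, Bglap2 spans chr3:88377736-88378699 and Bglap spans chr3:88383501-88384464, so the cluster covers 15849 bases. The coding sequences are shown because the reading of the counts turns on how alike they are. Each is 288 bases long with its stop codon, spread over coding exons within chr3:88383635-88384415, chr3:88377870-88378650 and chr3:88368756-88369536. Capitals mark the 13 positions at which the 3 sequences are not all the same.
Bglap: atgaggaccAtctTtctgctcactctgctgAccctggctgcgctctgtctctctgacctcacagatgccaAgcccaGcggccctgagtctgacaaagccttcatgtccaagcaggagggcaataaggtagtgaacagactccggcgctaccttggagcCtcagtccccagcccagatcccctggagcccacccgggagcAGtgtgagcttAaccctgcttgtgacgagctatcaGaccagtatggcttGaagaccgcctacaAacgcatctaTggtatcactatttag
Bglap2: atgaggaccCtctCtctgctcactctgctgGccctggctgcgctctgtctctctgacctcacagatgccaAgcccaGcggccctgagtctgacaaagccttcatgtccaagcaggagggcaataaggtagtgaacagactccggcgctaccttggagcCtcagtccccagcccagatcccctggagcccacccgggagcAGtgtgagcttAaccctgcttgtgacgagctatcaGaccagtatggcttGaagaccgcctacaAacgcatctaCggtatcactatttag
Bglap3: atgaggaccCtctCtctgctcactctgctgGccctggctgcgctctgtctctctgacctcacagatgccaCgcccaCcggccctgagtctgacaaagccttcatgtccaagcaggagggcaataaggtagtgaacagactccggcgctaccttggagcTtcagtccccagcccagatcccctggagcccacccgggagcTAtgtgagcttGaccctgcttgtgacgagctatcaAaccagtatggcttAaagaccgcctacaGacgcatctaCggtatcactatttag

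Bglap and Bglap2 differed at 4 coding bases and were 98.6% identical, Bglap and Bglap3 differed at 13 (95.5% identical), and Bglap2 and Bglap3 at 9 (96.9% identical). The last 149 bases of the Bglap and Bglap2 transcripts were the same letter for letter, and the last 78 bases of both were shared with Bglap3. The libraries read transcripts near their 3′ end. Of the 310 windows of 91 bases within the last 400 bases of the transcript, 210 (67.7%) were found in both Bglap and Bglap2, whereas none of the Bglap3 windows was found in either. The division of counts between Bglap and Bglap2 therefore rests on the reads that reach their few differing bases and is uncertain, while Bglap3 is told apart more often. Ratios of one gene's counts to another's are compared between cell classes below and are not read as the true proportion of the genes.

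The window of 250 bases before the Bglap transcription start, chr3:88384467-88384716 on the minus strand (RefSeq, GRCm38.p6), is shown because regulators that act on it are measured below.
Bglap upstream window: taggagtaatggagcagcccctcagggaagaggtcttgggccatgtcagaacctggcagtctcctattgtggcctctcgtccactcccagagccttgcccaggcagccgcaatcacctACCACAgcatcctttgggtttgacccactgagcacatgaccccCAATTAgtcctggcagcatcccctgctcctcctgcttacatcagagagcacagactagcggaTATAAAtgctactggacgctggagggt
Capitals mark the 3 motifs searched on both strands, which do not overlap in this window. ACCACA, a core sequence recognised by Runx proteins, begins at -132 from the start, CAATTA, a core of homeodomain sites, at -89 and TATAAA, the TATA box, at -27. Among all 32851 upstream windows of this length, ACCACA was in 14.0%, CAATTA in 7.17% and TATAAA in 12.4%. Bglap3 has 3 windows in the same table and none of them held an exact match to any of these motifs. The window at chr3:88372742-88372991 holds tatataag near its end, a TATA-like stretch that the exact search does not count. Bglap2 has no entry in that table.

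The pulse library held 10608 barcodes with 89009901 unique molecular identifiers (UMIs, each 1 counted transcript), and the chase library 10046 barcodes with 82939659. After removal of poor barcodes and likely doublets, 8593 and 7766 cells remained, with medians of 7499 and 7282 UMIs. Barcode sequences were shared between the libraries 52 times, 19 of them among kept cells. Cells were put into classes by counting marker genes, none of them an osteocalcin gene. The names osteoblast, osteocyte, osteogenic CAR and adipogenic CAR stand for cells like these by their markers, CAR being the Cxcl12-abundant reticular cells of marrow stroma. Osteoblasts carried a median of 9 of 10 osteoblast markers in both libraries, and osteocytes carried 3 of 7 osteocyte markers beside 8 or 9 osteoblast markers. Although the labels call the cells mesenchymal, leukocytes were 2916 and 2514 of the kept cells, and they served as the measure of free RNA, since blood cells are not known to make osteocalcin. Levels are given in CPM, the UMIs of a gene summed over the cells of a class and scaled to a fixed total of all genes, such that 10000 CPM is 1% of all UMIs. Pairs of values are given as pulse, then chase. Intervals are exact 95% intervals and, like all those given here, cover counting error only, since cells of 1 library are not replicates.

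Osteocalcin was among the most abundant transcripts of osteoblasts. The 3 genes together reached 115960 CPM in the 336 pulse osteoblasts and 99075 CPM in the 259 chase osteoblasts, which is 11.6% and 9.91% of all UMIs. Bglap stood at 80433 and 68938 CPM, Bglap2 at 34184 and 28864 CPM, and Bglap3 at 1344 and 1273 CPM. Leukocytes of the same libraries stood at 186 and 111 CPM for the sum, so that osteoblasts were 625-fold (606 to 645) and 894-fold (863 to 925) higher. All 3 genes passed the call used throughout, a ratio of at least 1.5-fold whose interval excludes 1, in both libraries. Of all genes tested, 15.1% and 15.8% were called higher in osteoblasts than in leukocytes and 60.8% and 56.9% lower. Scaling to the median gene in place of the total moved all osteoblast ratios to leukocytes up by 0.63 and 0.50 on the log2 scale.

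Osteocytes, the cells that osteoblasts become once buried in bone, held less osteocalcin than osteoblasts, by an amount that moved with the gate. The sum was 56920 CPM in 72 pulse osteocytes and 74358 CPM in 33 chase osteocytes. Against leukocytes this was 307-fold (297 to 317) and 671-fold (647 to 695) higher, with all 3 genes called in each library, where 14.1% and 11.5% of all genes were called higher and 49.5% and 39.3% lower. Relative to osteoblasts, osteocytes had 0.491 (0.487 to 0.495) of the osteocalcin level in the pulse library, with all 3 genes called lower against 6.84% of all genes. In the chase library the value was 0.751 (0.743 to 0.758), and none of the 3 genes passed the 1.5-fold call, against 3.02% of all genes called lower and 7.32% higher. Of the pulse osteocytes 40 and of the chase osteocytes 22 stood at the lowest number of markers that the gate accepts. With 1 marker fewer required in each gate the ratio to osteoblasts was 0.816 (0.813 to 0.820) and 0.947 (0.942 to 0.952) and no gene was called. With 1 marker more it was 0.340 and 0.382, on 32 and 11 osteocytes, and all 3 genes were called lower in each library. Clusters made without the osteocalcin genes put 18 pulse and 22 chase osteocytes with most osteoblasts, and 51 and 9 in a second cluster. The gate thus drew a different mix of cells in each library. With classes from these clusters the ratio was 0.487 and 0.473, on 61 and 13 osteocytes, and all 3 genes were called lower.

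Osteogenic CAR cells, which carry Alpl, Wif1, Limch1 and Spp1, held osteocalcin at about 1000 CPM in both libraries. The sum was 1032 CPM in 337 pulse cells and 1016 CPM in 228 chase cells. Bglap gave 579 and 545 CPM, Bglap2 423 and 442 CPM, and Bglap3 30.4 and 29.8 CPM. These levels were 5.56-fold (5.31 to 5.83) and 9.17-fold (8.66 to 9.70) those of leukocytes, and osteoblasts lay a further 112-fold (109 to 116) and 97.5-fold (93.2 to 102) higher. All 3 genes were called higher than in leukocytes in each library, beside 30.8% and 29.5% of all genes, while 25.4% and 27.5% were lower, so the direction alone was common. Against barcodes of 500 to 1000 UMIs, another measure of free RNA, osteogenic CAR cells held less by CPM, at 0.297 (0.278 to 0.316) and 0.170 (0.161 to 0.180) of the level there. By UMIs per cell they held more, 9.38 and 8.36 against 2.46 and 4.23 per such barcode. CPM depends on the total of each barcode, and the part of depth in this difference was not tested. The sizes differed between the genes: Bglap was 4.90-fold and 7.69-fold, Bglap2 8.93-fold and 16.9-fold, and Bglap3 1.51-fold (1.19 to 1.89) and 2.15-fold (1.59 to 2.85) higher. Over all tested genes the median log2 ratio of osteogenic CAR cells to leukocytes was 0.12 and 0.05. Scaling to the median gene uses only genes with at least 50 UMIs in each class. The median of those was higher in osteogenic CAR cells by 0.27 and 0.29 on the log2 scale. Relative to that median Bglap3 lost its call in the pulse library, at 1.26-fold (0.993 to 1.57), and kept it in the chase library at 1.76-fold. The calls of Bglap and Bglap2 held.

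Adipogenic CAR cells, marked by Adipoq, Lepr, Lpl and Agt, held osteocalcin within 1.5-fold of the leukocyte level once 1 cell was left out. The sum was 164 CPM in 1878 pulse cells, 0.886 (0.843 to 0.931) of the leukocyte level, and none of the 3 genes was called higher, against 34% of all genes. In the chase library it was 262 CPM in 1778 cells, 2.36-fold (2.25 to 2.49) higher than leukocytes, with Bglap and Bglap2 called and Bglap3 at 1.17-fold not called, against 34.9% of all genes. A single chase cell supplied 1148 of the 2123 Bglap UMIs of that class. Without the highest cell of each class, which leaves it out, the ratio to leukocytes was 1.22 (1.14 to 1.29). That chase cell held 6.22% osteocalcin among 23716 UMIs, carried 4 osteocyte markers beside 8 adipogenic CAR markers, and lay in a cluster that holds 51 of the 72 pulse and 9 of the 33 chase osteocytes. Endothelial cells, another stromal type of marrow, lay at 163 and 123 CPM, 0.881 (0.794 to 0.975) and 1.11 (0.972 to 1.26) of the leukocyte level.

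Osteogenic CAR cells were 6.28-fold (5.96 to 6.62) higher in osteocalcin than adipogenic CAR cells in the pulse library and 3.88-fold (3.66 to 4.11) in the chase library. All 3 genes were called higher in each, against 11.6% and 11.4% of all genes. Bglap2 differed most, at 10.6-fold and 7.47-fold, Bglap less, at 5.51-fold and 2.92-fold, and Bglap3 least, at 1.57-fold and 1.83-fold. The chase values rest on the 1 adipogenic CAR cell described above: without the highest cell of each class the sum differed 7.48-fold (6.99 to 8.01), Bglap2 13.8-fold, Bglap 6.15-fold and Bglap3 1.94-fold. The order of the classes was therefore osteoblast, osteocyte, osteogenic CAR and then adipogenic CAR with leukocytes and endothelial cells, and the last 3 differed by less than 1.5-fold once the 1 chase cell was left out.

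**Figure D1:**
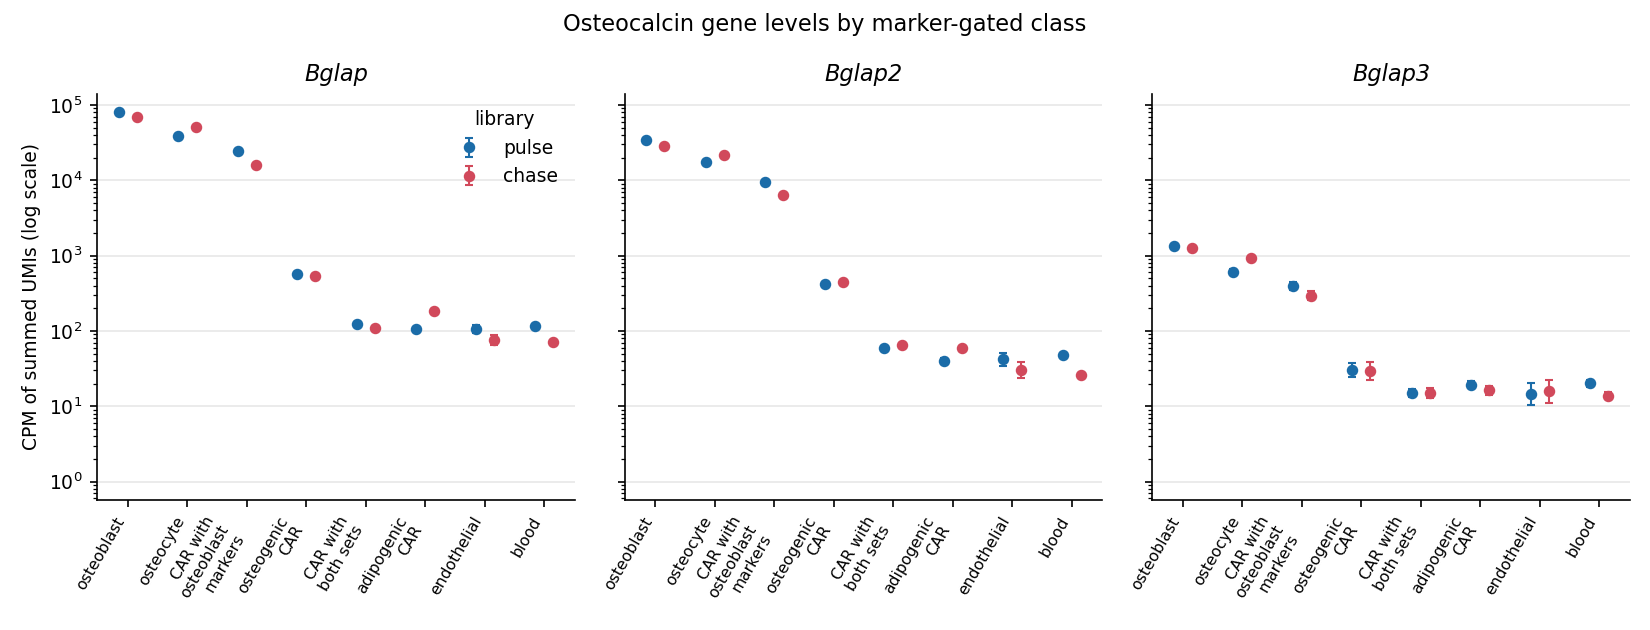
Osteocalcin level by cell class: level in CPM on a log axis for Bglap, Bglap2 and Bglap3 in 8 marker-gated classes, with 1 point for each library and exact 95% Poisson intervals. Osteoblasts and osteocytes are highest, followed by CAR cells with osteoblast markers; osteogenic CAR cells lie between these and the low level of adipogenic CAR cells, CAR cells with both marker sets, endothelial cells and leukocytes (named blood).

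CAR cells with both the adipogenic and the osteogenic markers, 1575 and 1386 cells, held osteocalcin near the leukocyte level in the pulse library and above it in the chase library. The sum was 199 and 191 CPM, or 1.07-fold (1.02 to 1.13) and 1.72-fold (1.63 to 1.82) the leukocyte level. The chase ratio passed the call and stood at 1.64 without the highest cell of each class and 1.57 without the highest 1% of each class. When all CAR cells were instead ordered by how many of the 7 osteogenic markers they carried, osteocalcin was highest at the upper end of the scale. The 19 and 27 cells without an osteogenic marker stood at 357 and 328 CPM. At 3 markers the level was 155 CPM in both libraries, at 5 it was 186 and 174 CPM, at 6 it was 302 and 237 CPM, and at 7 it was 550 and 585 CPM. The chase value at 4 markers, 389 CPM, falls to 120 CPM without the 1 cell described above. CAR cells that also carried osteoblast markers, 40 and 60 cells, were a mixed set. Their summed level was 34151 and 22473 CPM, but their median cell held 0.139% and 0.160% osteocalcin and the highest 16.5% and 17.0%. Only 3 and 2 of these cells reached 10%.

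**Figure D2:**
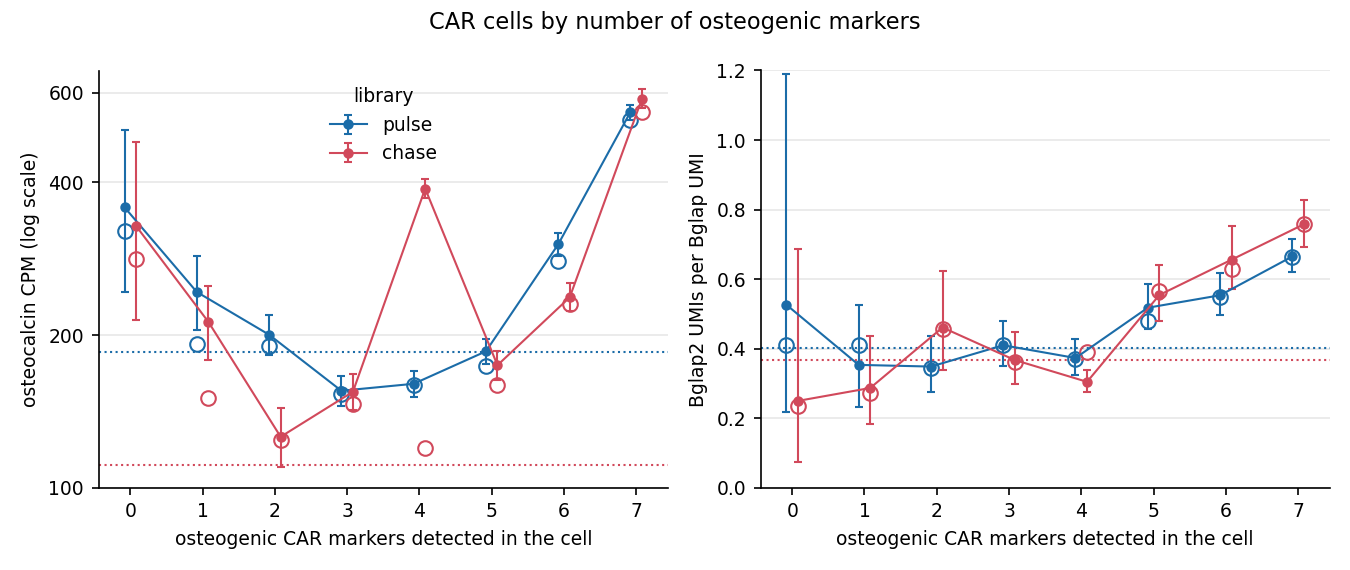
CAR cells by the number of osteogenic markers carried, 0 to 7: osteocalcin level in CPM on a log axis (left) and Bglap2 UMIs per Bglap UMI on a linear axis (right), by library, with filled points and exact 95% intervals for all cells, open circles without the highest cell of each bin and dotted lines at the leukocyte value of that library. The level is lowest at 2 to 5 markers, except for the chase value at 4 that 1 cell sets, and reaches 550 and 585 CPM at 7, where the ratio is 0.665 and 0.758.

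Across single cells the share of UMIs that were osteocalcin varied widely among osteoblasts. In the pulse library it ran from 0.00527% through a median of 11.4% to 24.9%, and 193 of 336 cells reached 10%. In the chase library it ran from 0 through a median of 8.21% to 26.3%, and 98 of 259 cells reached 10%. Under 1% were 48 and 39 osteoblasts, and 4 chase osteoblasts had no osteocalcin UMI. Osteocytes had medians of 3.48% and 5.59%. In osteogenic CAR cells the median was 0.0493% and 0.0656% and the highest cell reached 0.887% and 0.745%, so the 1% line separated every osteogenic CAR cell from most osteoblasts.

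**Figure D3:**
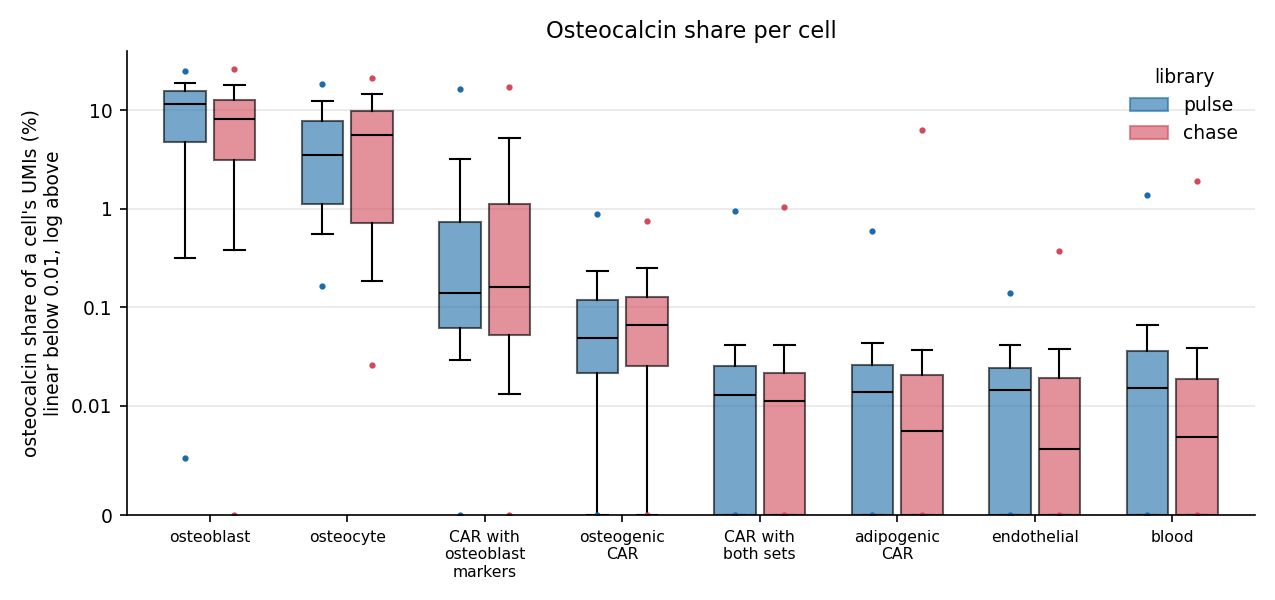
Share of a cell's UMIs that are osteocalcin, in percent on a scale that is linear near 0 and logarithmic above, by class and library; boxes give the quartiles and median, whiskers the 10th and 90th percentiles, dots the lowest and highest cell. Median osteoblasts stand at 11.4% and 8.21%, with a low tail that overlaps the osteogenic CAR cells.

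Depth differs between these classes, so each cell was also thinned at random to 2000 UMIs. At least 1 osteocalcin UMI then remained in 98.2% and 96.8% of osteoblasts, in 63.8% (58.2 to 69.0) and 68.2% (61.6 to 74.3) of osteogenic CAR cells, in 29.3% and 22.8% of adipogenic CAR cells and in 34.4% and 22.3% of leukocytes. Unthinned, osteogenic CAR cells had medians of 8752 and 7048 UMIs, adipogenic CAR cells 7890 and 6006 and leukocytes 5440 and 9796, and the share of adipogenic CAR cells with an osteocalcin UMI was 69.5% and 50.6%. The thinning left out 17 and 8 osteogenic CAR cells and 329 and 92 leukocytes as too shallow. With at least 5 UMIs required, the shares were 14.4% and 11.4% in osteogenic CAR cells against 0.348% and 0.413% in leukocytes and 0.109% and 0.294% in adipogenic CAR cells. The share in osteogenic CAR cells was above that of leukocytes in both libraries at either limit, and that in adipogenic CAR cells was not read as expression.

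Among osteoblasts, osteocalcin was lowest in those that carried the most CAR markers. Osteoblasts with 3 CAR markers, 22 and 33 cells, held 31262 and 34358 CPM, against 116148 and 129986 CPM in the 50 and 26 osteoblasts without any. These cells were also shallower, with medians of 12160 and 10818 UMIs against 25299 and 21893, and the part of depth was not tested. Osteocyte markers gave no such order within the osteoblast gate, where cells with 0, 1 and 2 of them held 102173, 126569 and 113584 CPM in the pulse library and 98782, 98843 and 99660 CPM in the chase library. Beyond that gate, cells with at least 6 osteoblast markers held 70128 and 90029 CPM with 3 osteocyte markers and 40156 and 39445 CPM with 4 or more. Osteoblasts below 1 tdTomato UMI per 10000 held 91132 and 84252 CPM and those above it 117392 and 101303 CPM. Their median depths also differed, 14405 and 15605 UMIs below against 23690 and 19531 above, and the part of depth in this difference was not tested either.

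Of the listed bone matrix genes with at least 200 CPM, Sparc followed osteocalcin most closely among single osteoblasts. Sparc (osteonectin, a collagen- and calcium-binding matrix protein) gave Spearman's rho of 0.63 over 336 pulse cells and 0.55 over 259 chase cells. Spp1 (osteopontin, a phosphorylated matrix protein) ran the opposite way, at -0.44 and -0.46, and Ibsp (bone sialoprotein) at -0.20 and -0.29. Col1a1, the main chain of type I collagen, gave 0.16 and 0.37. These values share the total of each cell, and depth itself gave 0.18 and 0.33. When osteoblasts were split into 4 groups of equal size by their Spp1 share, osteocalcin was 142078 and 121316 CPM in the group with least Spp1 and 72890 and 59358 CPM in the group with most.

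Summed over cells, the count of Bglap2 UMIs per Bglap UMI was close to 0.4 in most classes and highest in osteogenic CAR cells. It was 0.425 (0.423 to 0.427) and 0.419 (0.416 to 0.421) in osteoblasts, 0.457 and 0.427 in osteocytes, 0.402 (0.373 to 0.432) and 0.369 (0.339 to 0.401) in leukocytes and 0.381 and 0.317 in adipogenic CAR cells. CAR cells with both marker sets lay between, at 0.484 (0.447 to 0.525) and 0.580 (0.528 to 0.637). In osteogenic CAR cells it was 0.731 (0.680 to 0.786) and 0.811 (0.739 to 0.890). That is 1.72 times (1.60 to 1.85) and 1.94 times (1.77 to 2.13) the osteoblast ratio, and 1.82 and 2.20 times the leukocyte ratio. Subtraction of the leukocyte level moved it to 0.816 and 0.877. Along the osteogenic markers of all CAR cells the ratio was 0.410 and 0.367 at 3 markers, 0.518 and 0.555 at 5, 0.554 and 0.656 at 6, and 0.665 and 0.758 at 7. CAR cells with osteoblast markers had 0.386 and 0.404 as a class. Of their Bglap UMIs, 12 and 15 cells that clustered with most osteoblasts held 13692 of 14061 and 10664 of 11184. The 20 and 28 that clustered with most osteogenic CAR cells had 0.703 (0.566 to 0.873) and 0.662 (0.572 to 0.765). The higher ratio was therefore not confined to the osteogenic CAR gate. The part of reads in the sequence that both genes share was not tested, since the deposited counts do not hold the reads.

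**Figure D4:**
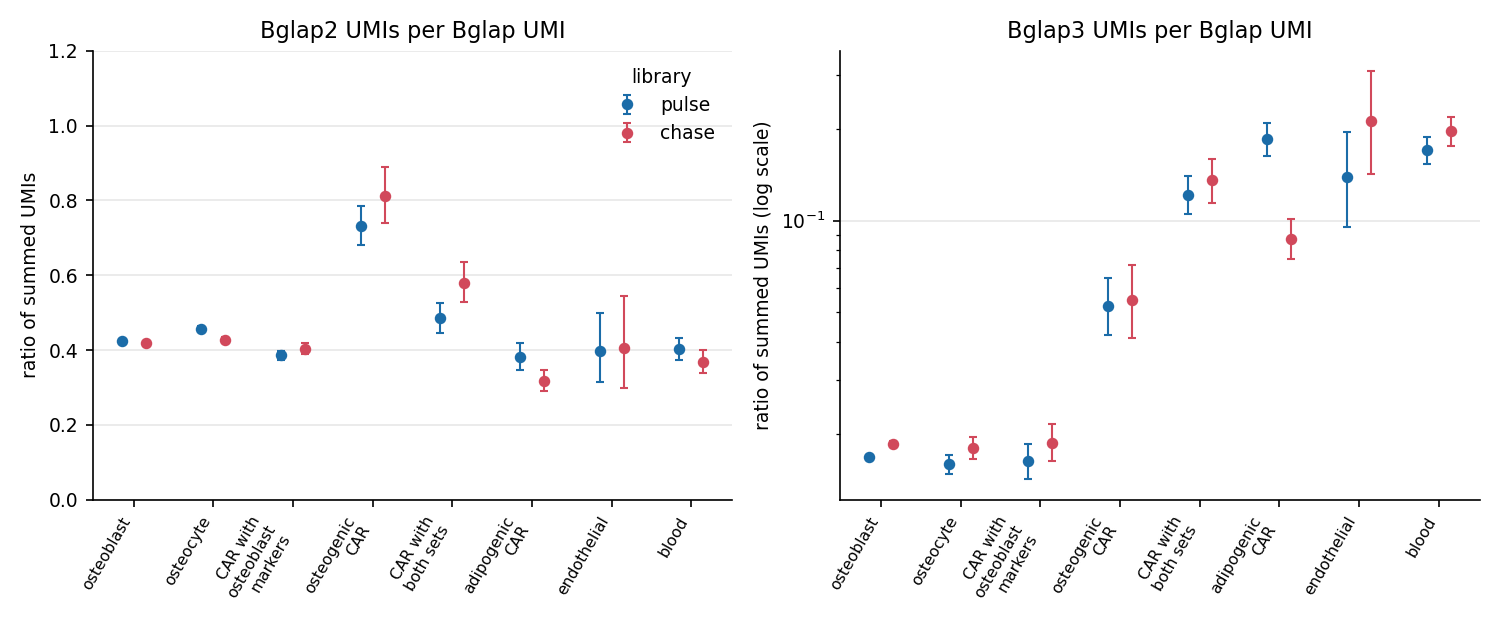
UMIs of Bglap2 (left, linear axis) and of Bglap3 (right, log axis) per Bglap UMI by cell class, with 1 point for each library and exact 95% intervals. For Bglap2 the class sum of osteogenic CAR cells is highest, at 0.731 and 0.811 against 0.425 and 0.419 in osteoblasts. For Bglap3 the leukocytes, at 0.170 and 0.196, lie above osteoblasts, at 0.0167 and 0.0185.

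Within osteoblasts the same ratio depended on how much osteocalcin a cell held. Osteoblasts with under 0.1% osteocalcin, 24 and 16 cells, had a ratio of 0.772 (0.567 to 1.05) and 0.769 (0.461 to 1.27), and those between 0.1% and 1% had 0.687 (0.609 to 0.773) and 0.472 (0.417 to 0.534). From 15% upward, in 99 and 42 cells, it was 0.417 and 0.423. The ratio and the bins are made from the same UMIs, so this is a description. Among osteogenic CAR cells the ratio was 0.651 and 0.721 below 0.1% osteocalcin and 0.760 and 0.845 between 0.1% and 1%. CAR cells with osteoblast markers had 0.750 and 0.635 below 0.1% and 0.704 and 0.799 between 0.1% and 1%.

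**Figure D5:**
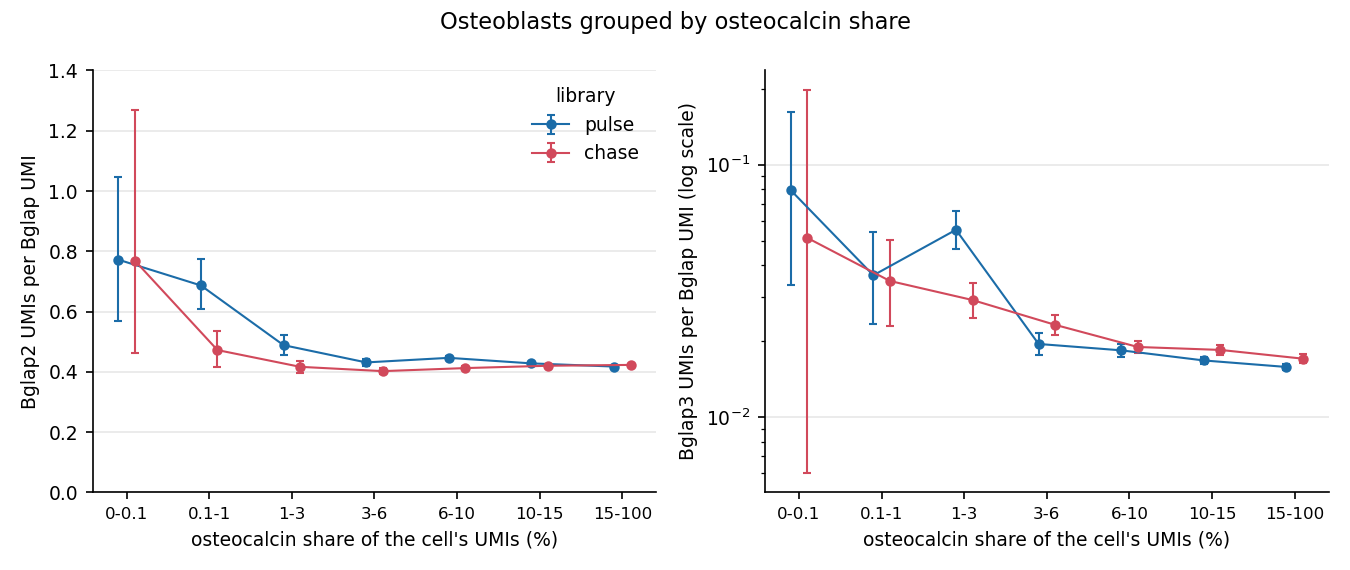
Count ratios to Bglap in osteoblasts by the share of the cell's UMIs that are osteocalcin, by library, with exact 95% intervals, on a linear axis for Bglap2 (left) and a log axis for Bglap3 (right). Bglap2 per Bglap goes from 0.772 and 0.769 in the lowest bin to 0.417 and 0.423 in the highest, and Bglap3 per Bglap from 0.0792 and 0.0513 to 0.0158 and 0.0170, with a pulse value of 0.0552 between 1% and 3%.

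In clusters made without the osteocalcin genes, 1 group of cells held more Bglap2 than Bglap UMIs, which was seen after the data were examined. It had 81 pulse and 113 chase cells with medians of 4 osteoblast and 6 osteogenic CAR markers. Its leading genes over all other cells were Spp1 at 85906 CPM, Timp1 (an inhibitor of matrix proteases), Postn (periostin), Col25a1, Ank (a pyrophosphate transporter) and Mmp13 (collagenase 3). Bglap and Bglap2 gave 708 and 945 UMIs in its pulse cells and 585 and 704 in its chase cells. The ratio was 1.33 (1.21 to 1.47) and 1.20 (1.08 to 1.35), and 1.29 and 1.21 without the highest cell. The summed osteocalcin level was 1453 and 1039 CPM. Bglap2 outnumbered Bglap in 36 of the 81 pulse cells and 56 of the 113 chase cells, and the reverse held in 35 and 40. The larger cluster that holds most other osteogenic CAR cells, led by Omd, Slc20a2 and Kcnk2, had a level of 803 and 992 CPM and a ratio of 0.718 (0.679 to 0.759) over 720 cells and 0.697 (0.650 to 0.746) over 457. Its Cxcl12 level was 8850 and 13276 CPM, against 812 and 2857 CPM in the Spp1-rich cluster. Among cells gated as osteogenic CAR, those in the Spp1-rich cluster had ratios of 0.949 (0.763 to 1.18) over 26 cells and 1.07 (0.921 to 1.25) over 56. Those in the larger cluster had 0.714 (0.660 to 0.771) over 270 cells and 0.692 (0.614 to 0.780) over 150. Over 4 groups of osteogenic CAR cells of equal size ordered by Spp1 share, the ratio was 0.838 and 1.07 in the group with most Spp1 and between 0.630 and 0.764 in the others.

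Bglap3 was the least abundant of the 3 genes in every class sum, and its count relative to Bglap was higher outside bone cells. It was 0.0167 (0.0164 to 0.0170) and 0.0185 (0.0180 to 0.0189) in osteoblasts, 0.0525 and 0.0548 in osteogenic CAR cells, 0.139 and 0.213 in endothelial cells and 0.170 (0.154 to 0.189) and 0.196 (0.176 to 0.218) in leukocytes. Leukocytes held 439 and 405 Bglap3 UMIs, where the osteoblast proportion applied to their Bglap counts gives 43.0 and 38.1. The Bglap3 level of leukocytes was thus 10.2 times (9.18 to 11.3) and 10.6 times (9.49 to 11.9) that proportion, whereas their Bglap2 ratio was 0.945 and 0.880 times that of osteoblasts. Monocytes and macrophages, neutrophils, B cells and T or NK cells all lay 6.05-fold to 13.2-fold above the osteoblast proportion. In 4 groups of leukocytes of equal size ordered by depth, the mean Bglap3 UMIs per cell were 0.0767, 0.122, 0.171 and 0.232 in the pulse library and 0.108, 0.139, 0.170 and 0.227 in the chase library, from shallow to deep. In adipogenic CAR cells the Bglap3 ratio was 0.185 in the pulse library and 0.0871 in the chase library. Without the highest cell of each class the chase value relative to leukocytes moved from 0.444 to 0.884.

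A few osteoblasts were rich in Bglap3. Of the 541 kept cells with at least 8 Bglap3 UMIs, a limit set after the values were seen, 9 had more than 20% as many Bglap3 as Bglap and Bglap2 UMIs together, and 6 of these were gated as osteoblasts. All 6 were shallow, with 1981 to 3568 UMIs. The most marked pulse cell held 33 Bglap3, 20 Bglap and 14 Bglap2 UMIs, and the chase cell 29, 16 and 1.

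Between the harvest times the summed osteoblast level of osteocalcin differed by less than the 1.5-fold call. Single osteoblasts had a median share of 11.4% in the pulse library and 8.21% in the chase library, and 57.4% and 37.8% of them reached 10%. The chase level was 0.854 (0.851 to 0.857) of the pulse level in osteoblasts, 1.31 (1.29 to 1.32) in osteocytes and 0.985 (0.930 to 1.04) in osteogenic CAR cells. None of the 3 genes was called in osteoblasts, where 7.38% of all genes were called higher and 2.6% lower, or in osteogenic CAR cells, where 5.48% were higher and 7.63% lower. In osteocytes Bglap3 alone was called, at 1.51-fold (1.35 to 1.68), against 7.56% of all genes called higher. The direction in osteocytes turned with the gate: the ratio was 0.962 with 1 marker more required, 0.973 with 1 fewer and 0.835 with classes from clusters. The split of osteocytes over the clusters, given above, also differed between the libraries. Leukocytes held 0.598 (0.571 to 0.626) of the pulse level, with Bglap and Bglap2 called lower against 6.8% of all genes called lower and 4.49% higher. As a mean over cells the leukocyte value was 0.813. Chase leukocytes were deeper, with a median of 9796 UMIs against 5440, and held 1.29 osteocalcin UMIs per cell against 1.39. The part of depth was not tested. Adipogenic CAR cells stood at 1.59 (1.51 to 1.68), with Bglap alone called higher against 7.04% of all genes. Without the highest cell of each library they stood at 0.817 (0.766 to 0.871). With 1 library at each time, the harvest time, the animals and the run cannot be told apart.

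The genes whose level over the 5 classes and 2 libraries was most like summed osteocalcin were read from Pearson's r of log2(CPM + 5) over these 10 values, which share libraries. Among 4834 genes the highest were Col1a1 at 0.998, Col22a1 at 0.992, Farp2 and Smpd3 (the neutral sphingomyelinase needed for mineralisation) at 0.991, Pla2g5 at 0.991, Adgrd1, Col11a1 and Gne at 0.990, and Zfp469 and Cthrc1 at 0.989. Col1a1, Col22a1 and Smpd3 were gate markers, so the gate itself set part of their pattern. Only Col1a1 among them approached the abundance of osteocalcin, at 114345 and 111486 CPM in osteoblasts. Farp2 stood at 72.7 and 70.6 CPM there.

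The enzymes that carboxylate osteocalcin were present in every stromal class. Vkorc1, which recycles vitamin K, stood at 409 and 329 CPM in osteoblasts, 155 and 116 CPM in osteogenic CAR cells and 170 and 148 CPM in adipogenic CAR cells. It was called higher in osteoblasts than in adipogenic CAR cells, at 2.41-fold and 2.22-fold, and no other gene of the list was. In this comparison all 3 osteocalcin genes were called higher, against 7.55% and 7.88% of all genes, and 68.9% and 63.6% of all genes were called lower. Ggcx, the gamma-glutamyl carboxylase itself, stood at 28.9 and 30.3 CPM against 21.1 and 21.5 CPM, and Vkorc1l1 at 28.0 and 27.1 against 24.2 and 21.3 CPM. Furin, the protease that removes the osteocalcin propeptide, and Calu, an inhibitor of the carboxylase, were lower in pulse osteoblasts, at 0.510-fold and 0.541-fold, near the median of all genes, whose log2 ratio was -1.01. Both missed the call in the chase library, at 0.672-fold and 0.770-fold. Scaling to the median gene moved these ratios up by 0.81 and 0.66 on the log2 scale and changed the picture. Ggcx then stood 2.41-fold and 2.23-fold higher, Vkorc1l1 2.03-fold and 2.02-fold and Vkorc1 4.22-fold and 3.51-fold, all called, and Furin and Calu were not called in either library. Nqo1 stayed under 10 CPM and was lower in chase osteoblasts, at 0.232-fold, and Ptprv was not found by name. None of the 6 genes of this list differed by the call between osteogenic and adipogenic CAR cells in either library.

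The other carboxylated proteins ran against osteocalcin. All 6 that were measured of 9 (Mgp, Gas6, Pros1, Prrg1, Prrg2 and Prrg3) were lower in osteoblasts than in adipogenic CAR cells in each library, with a median log2 ratio of -4.49 and -4.56 against -1.01 and -0.88 for all genes, of which 68.9% and 63.6% were called lower. Prrg3 had no UMI in osteoblasts, and with it set to the floor of 3 counts the medians were -4.21 and -3.27. All 6 were also lower relative to the median gene, a scale on which the share of all genes called is not given here. Mgp, matrix Gla protein and an inhibitor of calcification, stood at 14.6 and 4.99 CPM in osteoblasts and 500 and 1483 CPM in adipogenic CAR cells. Gas6, a ligand of the TAM receptors, stood at 29.9 and 43.1 against 3077 and 3350 CPM, and Pros1 (protein S) at 13.9 and 19.2 against 206 and 170 CPM. Prrg1 reached 22.5 CPM and Prrg2 34.8 CPM, both in adipogenic CAR cells. F10, coagulation factor X, stood at 20.8 and 33.5 CPM in leukocytes and at most 1.07 CPM elsewhere. In osteogenic CAR cells Mgp was 1.75-fold higher than in adipogenic CAR cells in the pulse library and lower in the chase library, at 0.197-fold.

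Among the proposed receptors, Gprc6a and Gpr158 had no UMI in any of the 5 classes. Gpr37 was at 5.09 and 4.59 CPM in osteoblasts and 2.19 and 8.10 CPM in osteocytes, and had no UMI in CAR cells or leukocytes.

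Of 18 genes known to regulate osteocalcin transcription, 17 were measured between osteoblasts and adipogenic CAR cells, of which 8 and 7 were higher and 7 and 6 lower, with a median log2 ratio of -0.33 and -0.02. Of all genes 7.55% and 7.88% were higher and 68.9% and 63.6% lower, with medians of -1.01 and -0.88. Scaled to the median gene, 8 and 9 were higher and 5 and 3 lower. Between osteogenic and adipogenic CAR cells 16 were measured, of which 9 were higher in each library and 3 and 2 lower, with a median of 0.71 and 1.12 against 0.07 and 0.04 for all genes, of which 11.6% and 11.4% were higher and 10.8% and 13% lower. Scaled to the median gene, 8 and 9 were higher and 4 and 3 lower. For neither comparison is the share of all genes called on that scale given here. Runx2 and Sp7 were among the gate markers. Runx2, which binds the ACCACA core shown above, stood at 144 and 158 CPM in osteoblasts, against 213 and 200 CPM in adipogenic CAR cells, a difference that was not called, and was highest in osteogenic CAR cells at 362 and 484 CPM. Sp7 (osterix) stood at 167 and 143 CPM in osteoblasts and 17.8 and 17.9 CPM in adipogenic CAR cells. Dlx3 stood at 46.4 and 44.5 CPM in osteoblasts, 4.57 and 7.46 CPM in osteogenic CAR cells and 0.258 and 0.264 CPM in adipogenic CAR cells, whereas Dlx5 was highest in osteogenic CAR cells, at 181 and 198 CPM. Both encode homeodomain factors.

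Vdr, the vitamin D receptor, was highest in osteogenic CAR cells at 171 and 250 CPM, against 70.2 and 108 CPM in osteoblasts and 39.7 and 29.9 CPM in adipogenic CAR cells. Mef2c stood at 715 and 673 CPM in osteoblasts, 1933 and 1071 CPM in osteocytes and 27.3 and 27.4 CPM in adipogenic CAR cells. Twist1, an inhibitor of Runx2, was 3.05-fold and 4.18-fold higher in osteoblasts than in adipogenic CAR cells, and Cbfb, the partner subunit of Runx2, 2.48-fold and 2.81-fold. Hes1, a Notch target, was lower in osteoblasts at 0.283-fold and 0.213-fold, Cebpb at 0.260-fold and 0.436-fold and Hey1 at 0.240-fold and 0.340-fold. Atf4 stood at 206 and 204 against 259 and 279 CPM and was not called. Rxra, the partner of the vitamin D receptor, was lower at 0.333-fold and 0.456-fold and Men1 at 0.468-fold and 0.621-fold. Relative to the median gene Men1 lost its call in both libraries and Rxra and Cebpb in the chase library, while Hes1 and Hey1 stayed lower in both. Bhlhe40 was higher in the pulse library, at 2.25-fold, and stood at 0.986-fold in the chase library. Msx2 and Twist2 stayed under 20 CPM in every class.

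Of 16 bone matrix and mineralisation genes, 15 and 14 were measured between osteoblasts and adipogenic CAR cells, and 11 and 10 were higher and 2 and 2 lower, with a median log2 ratio of 3.68 and 3.35. Over all genes 7.55% and 7.88% were higher and 68.9% and 63.6% lower, at medians of -1.01 and -0.88. Scaled to the median gene, 13 and 12 were higher and 2 and 2 lower, and the share of all genes called on that scale is not given here. Among them 9 were gate markers, and of the 7 and 6 measured genes that were not, 4 and 3 were higher. Col1a2 was 44.1-fold higher in each library, Sparc 12.9-fold and 13.1-fold. Omd (osteomodulin) was higher too, at 117 and 110 CPM against 26.0 and 14.0 CPM. Ogn (osteoglycin) was lower, at 0.00984-fold and 0.0438-fold, and so was Enpp1, which makes pyrophosphate, at 0.128-fold and 0.0476-fold. Of the gate markers, Col1a1 was 325-fold and 264-fold, Ifitm5 271-fold and 175-fold and Smpd3 289-fold and 302-fold higher. Osteopontin (Spp1) missed the call in pulse osteoblasts, at 1.42-fold, passed it in chase osteoblasts, at 1.57-fold, and stood at 20290 and 32571 CPM in osteogenic CAR cells, 10.8-fold and 25.2-fold above adipogenic CAR cells. Alpl, the alkaline phosphatase, likewise was highest there, at 1077 and 1168 CPM. Ibsp was highest in osteocytes, at 10542 and 8214 CPM, and stood at 3915 and 6560 CPM in osteogenic CAR cells and 3887 and 4176 CPM in osteoblasts. The order of Spp1, Alpl and Ibsp over the classes differed from that of osteocalcin. All 3 are gate markers, however, so the gate itself set part of their order. Dmp1 and Phex, both osteocyte gate markers, stood at 1487 and 1364 CPM and at 2019 and 1050 CPM in osteocytes, Mepe at 16.8 and 76.1 CPM, and Ank stood at 110 and 55.1 CPM in osteocytes and 70.5 and 114 CPM in osteogenic CAR cells. Phospho1 stayed under 10 CPM.

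The genes beside the cluster on chromosome 3 did not share its pattern. Paqr6, which lies 74 bases from Bglap3 on the other strand, was at most 0.599 CPM in the 5 classes. Pmf1, 9678 bases beyond Bglap, stood at 19.4 and 17.8 CPM in osteoblasts and 53.8 and 63.1 CPM in leukocytes, and was 1.81-fold and 1.89-fold higher in osteoblasts than in adipogenic CAR cells. Smg5 stood between 11.3 and 37.8 CPM in the 5 classes and Slc25a44 between 7.31 and 26.9 CPM. Slc25a44 was lower in osteoblasts than in adipogenic CAR cells in each library, also relative to the median gene, whereas the lower call of Smg5 was lost on that scale.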

How the data were processed

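The deposited values are raw UMI counts per gene and barcode of 2 libraries made with a 10x Genomics Single Cell 3′ v3.1 kit, per the labels' protocols. The matrix headers name Cell Ranger 6.0.2, and version 2.1.1 stands in the submitters' processing notes, as does the build mm10. The lowest barcode holds 500 UMIs, so shallower barcodes are not analysed here.

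Cells with at least 500 genes, 1000 UMIs and under 10% mitochondrial UMIs were kept. The automatic threshold of Scrublet (scanpy 1.11.5) marked 5 pulse and 98 chase cells, so the highest doublet scores were removed up to 0.8% per 1000 barcodes (797 and 679 cells). A marker counted at 1 UMI per 10000 or more. Osteoblasts needed 6 of 10 markers, osteocytes 3 of 7 with 4 osteoblast markers, CAR cells 4 of 7 with 7 of 8 adipogenic or 5 of 7 osteogenic markers, leukocytes 5 of 12 and endothelial cells 4 of 6, each with limits on markers of other classes. Clusters used 2000 variable genes without the osteocalcin genes (30 components, 15 neighbours, Leiden resolution 1).

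Summed counts carry exact Poisson intervals, ratios exact conditional intervals and shares exact binomial (Clopper-Pearson) intervals. Calls over all genes needed at least 50 UMIs over both sums, and the median gene was taken among genes with at least 50 UMIs in each sum. The call was tried on simulated Poisson counts made from pulse class sums, with 2-fold and 3-fold changes planted. It recovered 84% to 96.5% of these and called 86 to 165 unchanged genes. The simulated counts had no spread between cells or libraries, so the effect of such spread on the calls was not tested. Gene lists of 57 symbols (56 found) and the markers were written down, with genes named at 20 CPM or more in 1 of the 5 classes and the 10 most alike genes by r. The members and lists were chosen with earlier results of these data known, and gate limits, the Bglap3 limits, the groups by Spp1 share and the cluster described were chosen after the data were seen. Promoter windows are from RefSeq, with 2 of the 3 genes matched.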

Additional observations from a re-analysis of the deposited data

Results flagged for a closer look

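The osteocalcin ratio of adipogenic CAR cells to leukocytes was 0.886 in the pulse library and 2.36 in the chase library, on opposite sides of 1. The difference between the libraries was not tested, and the chase value was 1.22 without the highest cell of each class. The chase level of osteocalcin was 0.854 of the pulse level in osteoblasts and 1.31 in osteocytes, in opposite directions, on 336 and 259 osteoblasts and 72 and 33 osteocytes. This difference was not tested either, and the osteocyte ratio was 0.962 with a stricter gate, 0.973 with a looser one and 0.835 with classes from clusters, on the same side of 1 as that of osteoblasts.

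Kept cells that met no gate, 1137 and 1246 in number, held osteocalcin at 3053 CPM in the pulse library and 2759 CPM in the chase library, above leukocytes. Barcodes of 500 to 1000 UMIs, which were left out of all classes, held 3481 CPM over 564 barcodes and 5968 CPM over 856. Per barcode this was 2.46 and 4.23 osteocalcin UMIs, against 1.39 and 1.29 per leukocyte. A cluster of 214 barcodes, all from the chase library and with a median of 2099 UMIs, held 10793 CPM. Its median barcode carried 6 leukocyte, 3 CAR and 3 osteoblast markers, and its Bglap2 to Bglap count ratio was 0.421.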

How the results depend on the processing

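Of 491 values recomputed under the alternatives, 462 kept their side of the call, or stayed within 1.5-fold where they were counts. All 71 recomputed Bglap2 to Bglap ratios relative to leukocytes were among these, as were the osteoblast and osteocyte ratios to leukocytes. Keeping the call did not always keep the direction or the size. Of these, 13 ratios that were not called crossed 1. They were the osteocyte chase-to-pulse ratio, from 1.31 to 0.962 (stricter gate), 0.973 (looser gate) and 0.835 (clusters), 5 such ratios of osteogenic CAR cells, from 0.985 to between 1.01 and 1.12, the chase Bglap2 ratio of adipogenic CAR cells, from 0.860 to between 1.01 and 1.02 in 4 settings, and 1 pulse Bglap3 ratio of these cells, from 1.08 to 0.957. The osteocyte ratio to leukocytes moved from 307 to 498 (looser gate, pulse) and from 671 to 361 (stricter gate) and 393 (clusters, chase). As a mean over cells the osteoblast ratios to leukocytes were 394 in each library and those of osteocytes 190 and 288, and against barcodes of 500 to 1000 UMIs they were 33.3 and 16.6 and 16.4 and 12.5. Relative to osteoblasts, osteocytes lost the pulse call with the looser gate, at 0.816, and gained the chase call with the stricter gate, at 0.382, and with clusters, at 0.473. The chase ratio of osteogenic to adipogenic CAR cells, 3.88, rose to 6.56 with the looser gate, 7.20 with clusters, 7.48 without the highest cell and 8.16 without the highest 1%. No paired analysis was possible because each group is 1 library, and for the same reason no library could be left out. The removal of the highest cells, the automatic doublet threshold and the alternatives for these ratios between classes were chosen after seeing the data.

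The remaining values mostly concern adipogenic CAR cells, where 1 chase cell counts. Their chase ratio to leukocytes, 2.36, became 1.34 with a looser gate, 1.17 with classes from clusters, 0.887 as a mean over cells, 1.36 after subtraction of the leukocyte level, 1.22 without the highest cell of each class and 1.23 without the highest 1%. Their pulse ratio, 0.886, became 0.547 against lymphocytes. Against the CPM of barcodes of 500 to 1000 UMIs the adipogenic CAR ratios were 0.0472 and 0.0439 and the osteogenic CAR ratios reversed to 0.297 and 0.170. By UMIs per cell, as given above, osteogenic CAR cells held more than these barcodes. The chase-to-pulse ratio of adipogenic CAR cells, 1.59, became 0.867 with the looser gate, 0.792 with clusters, 1.03 as a mean over cells, 0.817 without the highest cell and 0.754 without the highest 1%. It could not be computed after subtraction of the leukocyte level, since the pulse level lies below it. That of leukocytes, 0.598, became 0.813 as a mean over cells. The Bglap3 to Bglap ratio of chase adipogenic CAR cells relative to leukocytes, 0.444, became 0.884 with the looser gate, 0.805 with clusters, 0.884 without the highest cell and 0.870 without the highest 1%. The pulse share of adipogenic CAR cells with an osteocalcin UMI, 29.3%, became 31.6% with the looser gate, 47.7% at 4000 UMIs per cell and 69.5% without thinning, and the chase share, 22.8%, became 50.6% without thinning. Of the 10 genes most like osteocalcin, 2 remained with Spearman's rho.

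A 2-fold call in place of 1.5-fold lowered the number of genes called higher in osteogenic than in adipogenic CAR cells from 1283 to 608 and from 1223 to 613, and lower from 1201 to 697 and from 1394 to 869. Between osteocytes and osteoblasts the higher calls fell from 1299 to 608 and from 495 to 212 and the lower calls from 537 to 328 and from 204 to 124. Chase to pulse, the higher and lower calls fell from 647 to 187 and from 228 to 79 in osteoblasts, from 282 to 111 and from 454 to 200 in osteocytes, from 479 to 128 and from 667 to 198 in osteogenic CAR cells, from 815 to 292 and from 690 to 217 in adipogenic CAR cells and from 552 to 193 and from 836 to 312 in leukocytes. In osteocytes 424 genes were higher when at least 20 UMIs sufficed.

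Depth limits Bglap3 most, with 93 and 56 UMIs in osteogenic CAR cells.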

Other observations

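Leukocytes of low depth had a higher osteocalcin CPM than deep ones. In 4 groups of equal size ordered by depth the level was 457, 278, 188 and 129 CPM in the pulse library, at median depths of 2054, 3695, 7316 and 14177 UMIs, and 420, 129, 109 and 66.2 CPM in the chase library, at 3126, 7210, 12087 and 20667 UMIs. The osteocalcin UMIs per cell were 0.932, 1.07, 1.42 and 2.14 in the pulse groups and 1.30, 0.930, 1.33 and 1.57 in the chase groups. The leukocyte level used as background is therefore an average over cells of different depth.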
